A study of Mus musculus with 12 samples.

Results

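Fragments of the arginine tRNAs were followed through 12 small RNA libraries of mouse sperm and of the TM4 mouse Sertoli cell line. The members were the 5 mature tRNA-Arg isoacceptors, named for their anticodons mature-tRNA-Arg-ACG, mature-tRNA-Arg-CCG, mature-tRNA-Arg-TCG, mature-tRNA-Arg-TCT and mature-tRNA-Arg-CCT, out of 51 mature tRNA isoacceptors with reads in the series. They were chosen by name, and each of the 5 had reads in all 12 libraries. Each isoacceptor gave 3 kinds of tRNA-derived fragment (tRF), so that 15 tRNA-Arg tRFs stood among 152 tRFs with a read. A tRF5 starts at the 5′ end of the mature tRNA. A tRF3 ends at its 3′ end, either with the CCA tail that is added after transcription (CCA-end) or without it (3-end). All remaining reads were called "other" and came from inside the tRNA.

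The study asked how a high-fat diet, inhibition of the energy sensor AMPK and excess of the ribonuclease angiogenin alter tRNA fragmentation. Mature epididymal sperm came from C57BL6/J mice on a control diet (CD, 16% of energy from fat, n = 3) or a high-fat diet (HFD, 69% of energy from fat per the labels, n = 3), given for 7 weeks from 4 weeks of age, with the sperm of 3 mice pooled in each library. The fat content of the HFD in the study's methods differs from that in the labels. TM4 cells, grown in 10% fetal bovine serum, were labelled control (Ctrl, n = 2), treated with Compound C, an AMPK inhibitor, at 10 µM for 12 h (CC, n = 2), or made to overexpress the coding sequence of Ang, which encodes angiogenin, from a plasmid (Ang OE, n = 2). The labels do not say whether the Ctrl cells received an empty plasmid, and TM4 is a single established line whose replicate libraries are not stated to be separate cultures. The p-values for TM4 therefore measure the spread between libraries, which may be technical.

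Transfer RNAs bring amino acids to the ribosome, and arginine, with a large set of codons, is served by several isoacceptors. Angiogenin is known to cut mature tRNAs in the anticodon loop under stress, which leaves a 5′ and a 3′ piece, and sperm are known to be rich in 5′ pieces, mainly of tRNA-Gly and tRNA-Glu. tRNA-Arg-TCT genes are among the few in mammals that carry introns, which are spliced out of the precursor before the mature tRNA is used.

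The sequences that the fragments are cut from decide which isoacceptors can be told apart by short reads. All 24 tRNA-Arg genes listed by RefSeq were found in GRCm39, namely 6 for ACG, 3 for CCG, 5 for TCG, 5 for TCT and 5 for CCT. The search was for the tRNA fold and ran only on the 11 chromosomes that RefSeq lists for them. Of the 24, 8 lay on chromosome 13. In the GENCODE annotation, read without regard to strand, 11 were intergenic, 5 fell inside introns and 8 overlapped exons of annotated transcripts, among them n-TRacg6, whose overlapping non-coding transcript carries its own name. A representative of each isoacceptor is given 5′ to 3′ without intron and without the CCA tail, with the anticodon in capitals, and CCG is shown by both of its kinds.
n-TRacg4: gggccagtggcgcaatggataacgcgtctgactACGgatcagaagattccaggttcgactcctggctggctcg
n-TRccg1: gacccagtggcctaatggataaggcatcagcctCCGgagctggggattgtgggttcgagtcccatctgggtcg
n-TRccg2: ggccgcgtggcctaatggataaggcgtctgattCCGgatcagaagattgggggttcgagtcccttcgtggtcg
n-TRtcg2: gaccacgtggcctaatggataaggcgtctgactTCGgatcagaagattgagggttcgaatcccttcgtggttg
n-TRtct1: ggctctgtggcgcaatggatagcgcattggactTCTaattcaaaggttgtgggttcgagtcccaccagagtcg
n-TRcct3: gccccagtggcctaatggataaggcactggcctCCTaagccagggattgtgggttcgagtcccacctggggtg

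n-TRacg4 lies at chr13:23684692-23684764 (minus strand) in an intron of the long non-coding RNA Gm61424, and 3 ACG genes share its sequence. n-TRccg1 lies at chr11:106903692-106903764 (plus strand) and is intergenic. n-TRccg2 lies at chr17:23769237-23769309 (minus strand) and overlaps an exon of the long non-coding RNA Gm65759. n-TRtcg2 at chr13:21463866-21463938 (plus strand), n-TRtct1 at chr19:11988952-11989037 (minus strand, with an intron of 13 bases) and n-TRcct3 at chr11:115304130-115304202 (minus strand) are intergenic. n-TRccg1 and n-TRcct3 were identical at 62 of 73 positions, with a shared run of 24 bases that begins at base 3. Over all genes, the CCG and TCG isoacceptors shared 45 stretches of 15 bases. The share of an isoacceptor's 15-base stretches that no other tRNA-Arg isoacceptor held was 98.1% for ACG, 96.4% for TCT, 75.2% for CCT, 66.2% for TCG and 51.5% for CCG. The pipeline divides a read among the subclasses it matches. Values were not whole numbers (beyond 0.004 reads) in 44 of 72 cases for CCG, 44 of 72 for TCG, 15 of 71 for TCT, 11 of 72 for CCT and 5 of 72 for ACG. The split between CCG and TCG, and in part between CCG and CCT, is therefore uncertain, whereas ACG and TCT stood mostly on reads of their own among the tRNA-Arg.

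After removal of ribosomal RNA reads, sperm libraries held 23030602 to 28018533 reads and TM4 libraries 47610967 to 59623558. Levels are given as RPM, the reads for every 1000000 of this total. tRNA-Arg took 7776 to 19570 reads in a sperm library and 84792 to 180821 in a TM4 library. All 8 germ cell miRNAs examined were present in sperm (summed level 1806 to 4956 RPM), beside miRNAs of smooth muscle (15352 to 29715 RPM), red blood cells (12630.4 to 25341 RPM), epithelium (4480 to 7580 RPM) and white blood cells (285 to 719 RPM). Of the germ cell list, 4 to 6 of 8 had reads in a TM4 library, at a summed 550 to 1335 RPM. Most of this was mir-34c, at 551 to 563 RPM in Ctrl, 503 to 547.5 RPM in CC and 1134 to 1277 RPM in Ang OE. In sperm mir-34c stood at 783 to 1330 RPM in CD and 722 to 1251 RPM in HFD. The germ cell miRNAs mir-463 and mir-880 were at 0 in TM4. The single gonadal marker examined, mir-202, was at most 0.11 RPM in TM4 and at 0 in at least 1 library of each TM4 group, so the Sertoli cell origin of the line had no support from it.

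tRNA-Arg was a minor family in sperm and a major family in TM4 cells. Its summed level was 408, 539 and 281 RPM in the 3 CD libraries and 479, 532 and 698 RPM in the 3 HFD libraries. In TM4 it was 1693 and 1729 RPM in Ctrl, 2077 and 3717 RPM in CC and 2567 and 3316 RPM in Ang OE. Every TM4 library was above every sperm library, whereas the ranges of CD and HFD overlapped, as did those of CC and Ang OE. In order of the means, CD (409 ± 129, SD) and HFD (569.6 ± 115) did not differ beyond their spread, Ctrl stood at 1711 ± 25.1, and CC (2897 ± 1160.2) and Ang OE (2941 ± 529.9) were above Ctrl with the widest spreads. By level, tRNA-Arg ranked 14 to 17 among the 22 or 23 families with at least 100 reads in sperm and 3 to 6 among 23 in TM4. Of all reads matched to mature tRNAs, it took 0.169% to 0.539% in sperm and 6.14% to 13.9% in TM4.

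**Figure D1:**
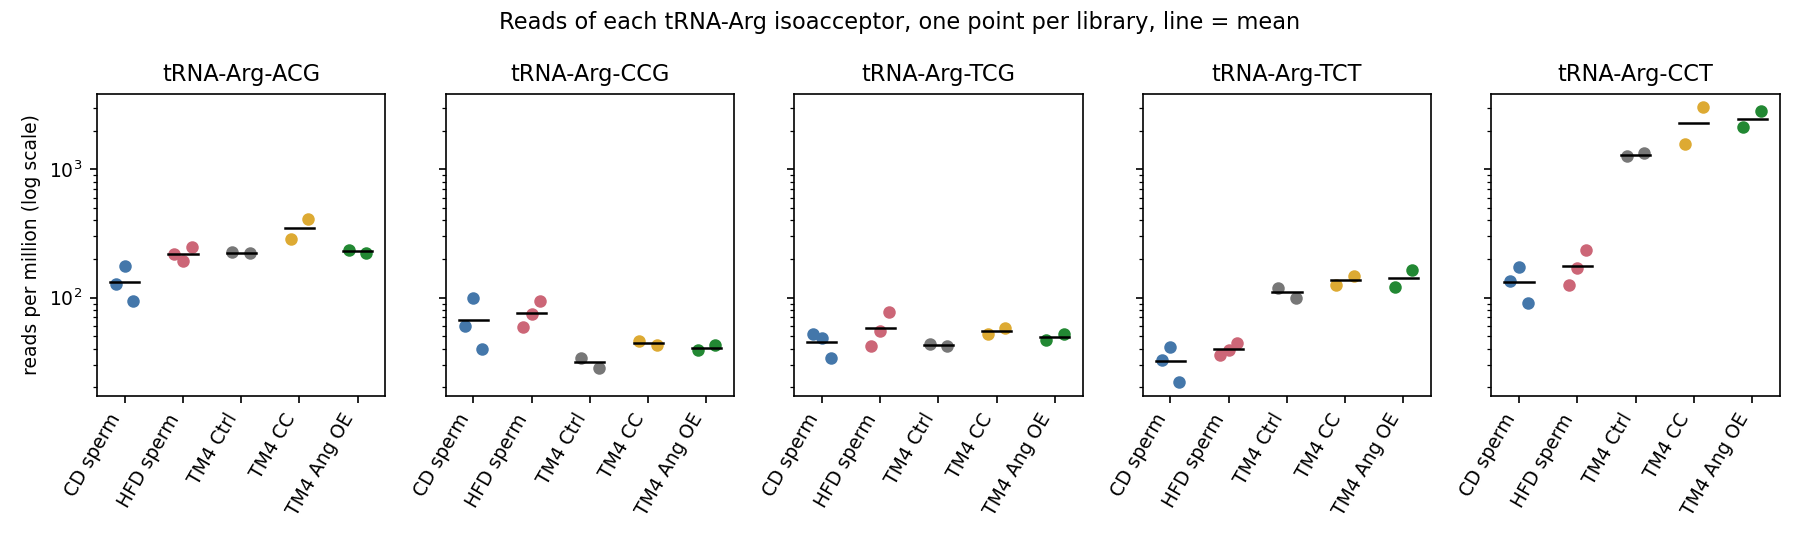
RPM of each tRNA-Arg isoacceptor (y axis, log scale) in the 5 groups (x axis), with a point per library and a line at the group mean. tRNA-Arg-CCT stood at 90.6 to 235 RPM in sperm libraries and 1269 to 3055 RPM in TM4 libraries, while tRNA-Arg-CCG stood at 39.9 to 99.98 RPM in sperm and 28.5 to 45.7 RPM in TM4, which overlapped.

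The isoacceptors did not share this difference equally. tRNA-Arg-CCT made up 26.1% to 33.7% of tRNA-Arg reads in sperm and 75.0% to 85.5% in TM4. tRNA-Arg-ACG took 31.1% to 45.4% in sperm and 6.74% to 13.7% in TM4, although its mean level was higher in Ctrl (224 RPM) than in CD (133 RPM). tRNA-Arg-CCG took 12.3% to 18.5% in sperm and 1.14% to 2.20% in TM4. tRNA-Arg-TCG took 8.72% to 12.8% and 1.57% to 2.59%, and tRNA-Arg-TCT 6.38% to 8.05% and 3.96% to 7.08%. The CCT fragments thus carried most of the tRNA-Arg reads of the cell line, and ACG and CCT together carried most of those of sperm.

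By far the most tRNA-Arg reads were internal. Other fragments made up 83.1% to 91.2% of tRNA-Arg reads in all 12 libraries, against 18.9% to 39.1% of the reads of all remaining tRNAs. The 5-end share of tRNA-Arg was 0.951%, 1.34% and 2.10% in CD, 1.02%, 1.14% and 1.28% in HFD, 0.605% and 0.282% in Ctrl, 0.359% and 0.0905% in CC, and 0.747% and 1.24% in Ang OE. The remaining tRNAs had 5-end shares of 64.1% to 79.9% in sperm and 8.29% to 67.5% in TM4, carried by the largest families. The median family had 5.39% to 13.3% in sperm and 0.768% to 1.75% in TM4, and tRNA-Arg ranked 5 to 10 from the lowest among 22 or 23 families. CCA-end reads took 5.52% to 12.0% of tRNA-Arg in sperm and 7.89% to 16.1% in TM4, and 3-end reads without the tail 1.97% to 3.96% and 0.0441% to 0.248%. A high share of other reads was not particular to arginine, since tRNA-Arg ranked 3 to 6 among families by it, and the median family had 67.5% to 81.4% of other reads in sperm and 46.0% to 62.2% in TM4.

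**Figure D2:**
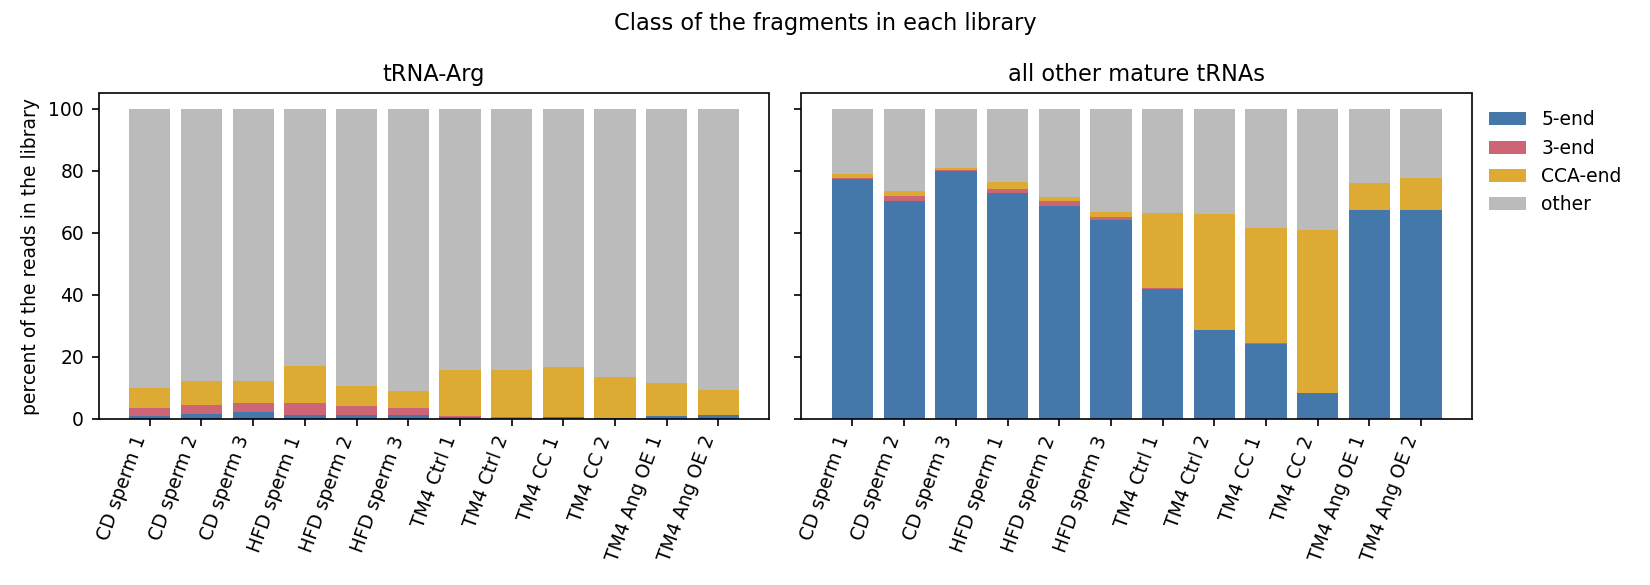
Percent of reads (y axis) in each fragment class in every library (x axis), for tRNA-Arg on the left and for all other mature tRNAs on the right. The grey part, other fragments, covers 83.1% to 91.2% of each tRNA-Arg bar, and the blue part, 5-end reads, reaches at most 2.10%.

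The families set beside it differed in this respect. tRNA-Gly, the source of most sperm tRF5, had 5-end shares of 87.0% to 91.0% in CD and 81.4% to 88.5% in HFD. tRNA-Lys, the other common basic amino acid family, had 20.1% to 29.6% in CD and 54.0% to 57.4% in Ang OE. tRNA-His, whose mature form has an extra base at the 5′ end, had 18.9% to 23.8% in CD and 25.7% to 29.6% in Ang OE. In each of the 5 groups all tRNA-Arg libraries lay below those of the 3 families, with no test made, although each library also held families with a lower 5-end share than tRNA-Arg. In Ang OE the 5-end share of tRNA-Gly was 87.3% to 91.5% against 49.4% to 66.0% in Ctrl, while that of tRNA-Arg went from 0.282% and 0.605% to 0.747% and 1.24%.

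Within tRNA-Arg the isoacceptors contributed unequally to the classes. TCT gave 36% to 49.3% of the 5-end reads in sperm and 72.9% to 91.6% in TM4. ACG gave 72.7% to 80.3% of the CCA-end reads in sperm and 67.7% to 72.7% in TM4. The 3-end reads without the tail came mostly from ACG in sperm (44.1% to 64.6%, with 25.4% to 42.7% from TCT), while in TM4 TCT gave 33.3% to 60% and ACG 22.7% to 39.7%, and ACG led in CC replicate 2 alone. Of the other reads in sperm, CCT gave 30.8% to 36.6% and ACG 27.9% to 40.5%, and CCT led in each library except HFD replicate 1, where ACG had 40.5% and CCT 30.8%. In TM4 CCT gave 87.3% to 93.6% of the other reads, but it gave no more than 1.97% of the CCA-end reads in sperm. CCG and TCG led in no class in either sample type.

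The other fragments of tRNA-Arg-CCT were the most abundant tRNA-Arg tRF in TM4. They stood at 135, 170.4 and 88.7 RPM in CD, 123, 167 and 233 RPM in HFD, 1245 and 1310.4 RPM in Ctrl, 1541 and 3017 RPM in CC, and 2111 and 2815 RPM in Ang OE. CC and Ang OE libraries were all above both Ctrl libraries, and CC replicate 2 was the highest of all. Among the other fragments of all isoacceptors, those of CCT ranked 1 to 4 in TM4 libraries and 26 to 32 in sperm libraries. They held 12.3% to 24.7% of all other reads in TM4 and 0.281% to 0.591% in sperm.

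The tRF3 of tRNA-Arg-ACG was the next largest in TM4, nearly all of it CCA-end. Its CCA-end reads stood at 19.2, 31 and 14.8 RPM in CD, 42.9, 27 and 29.8 RPM in HFD, 175 and 178 RPM in Ctrl, 230.5 and 356 RPM in CC, and 193 and 179.5 RPM in Ang OE. All TM4 libraries were above all sperm libraries, and both CC libraries were above the Ctrl and Ang OE libraries. With the 3-end reads added, the tRF3 stood at 23.7, 40.9 and 18.4 RPM in CD, 55.2, 35.8 and 37.9 RPM in HFD, 176 and 178 RPM in Ctrl, 231 and 357 RPM in CC, and 194 and 180.1 RPM in Ang OE, in the same order of sample types. The other fragments of tRNA-Arg-ACG had the opposite order, with 102, 135 and 74.9 RPM in CD, 161, 157 and 207 RPM in HFD, and 41.3 to 57 RPM in TM4. The 3 HFD libraries were above the 3 CD libraries, and all TM4 libraries were below both.

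For tRNA-Arg-TCT, other fragments stood at 25, 29.6 and 15.2 RPM in CD, 24, 30.4 and 34.5 RPM in HFD, 86.7 and 68.2 RPM in Ctrl, 89.1 and 99.6 RPM in CC, and 79.4 and 100.5 RPM in Ang OE. Those of tRNA-Arg-CCG stood at 57.2, 96.5 and 37.2 RPM in CD, 55.6, 71.4 and 91 RPM in HFD, 18.5 and 14.2 RPM in Ctrl, 21.05 and 19.96 RPM in CC, and 14.8 and 19.9 RPM in Ang OE. The diets overlapped for both, and TM4 was above sperm for TCT and below it for CCG. For tRNA-Arg-TCG they stood at 47.9, 42.6 and 30.6 RPM in CD, 34.2, 50.4 and 72.1 RPM in HFD, 26.7 and 23.1 RPM in Ctrl, 28.2 and 28.6 RPM in CC, and 26.8 and 32.4 RPM in Ang OE, with Ang OE replicate 2 above CD replicate 3.

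The tRF3 of the remaining isoacceptors, 3-end and CCA-end reads together, were all low in sperm. That of tRNA-Arg-TCT stood at 6.20, 8.69 and 4.37 RPM in CD, 9.37, 6.43 and 6.53 RPM in HFD, 25.3 and 28.4 RPM in Ctrl, 30.7 and 44.8 RPM in CC, and 25.3 and 25.1 RPM in Ang OE. That of tRNA-Arg-TCG stood at 4.11, 5.98 and 3.18 RPM in CD, 7.12, 3.98 and 5.15 RPM in HFD, 17.1 and 18.8 RPM in Ctrl, 24.1 and 29.4 RPM in CC, and 19.5 and 19.5 RPM in Ang OE. For both, the CC libraries were the highest, and the diets overlapped.

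That of tRNA-Arg-CCG stood at 1.83, 1.74 and 1.11 RPM in CD, 2.65, 1.53 and 1.31 RPM in HFD, 14.4 and 13.9 RPM in Ctrl, 23.8 and 22.2 RPM in CC, and 22.7 and 20.5 RPM in Ang OE. That of tRNA-Arg-CCT stood at 0.849, 1.43 and 1.12 RPM in CD, 1.94, 1.35 and 1.46 RPM in HFD, 24.5 and 25.5 RPM in Ctrl, 27.5 and 38.3 RPM in CC, and 13 and 18.5 RPM in Ang OE. All TM4 libraries were above all sperm libraries for the 4 isoacceptors, and for CCT Ang OE was the lowest TM4 group. The tRF5 of tRNA-Arg-CCT was rare, at 0.332, 0.928 and 0.722 RPM in CD, 0.287, 0.521 and 1.14 RPM in HFD, 0.0999 and 0.101 RPM in Ctrl, 0.174 and 0.273 RPM in CC, and 0.0404 and 0.275 RPM in Ang OE, the TM4 values on 2 to 15 reads.

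**Figure D3:**
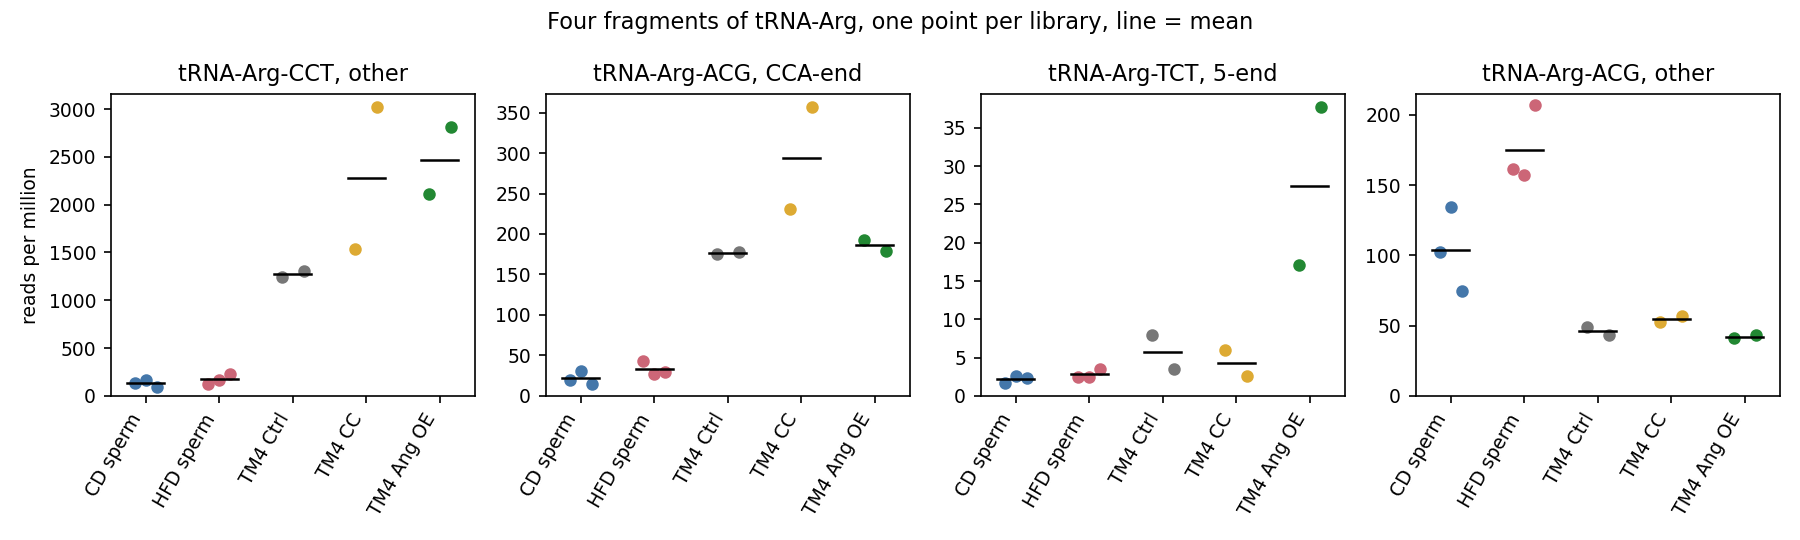
RPM (y axis, a separate linear scale in each panel, from 0) of 4 tRNA-Arg fragments in the 5 groups (x axis), with a point per library and a line at the mean. The 5-end fragment of tRNA-Arg-TCT is highest in the Ang OE libraries at 17.1 and 37.7 RPM, and the ACG CCA-end fragment in the CC libraries.

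To see whether the diet altered tRNA-Arg fragments in sperm, HFD was compared with CD. The summed level was 1.39 times higher in HFD (log2 ratio 0.48), which was within the spread of the libraries (exact two-sided permutation test, p = 0.3, and 1 after adjustment over 6 measures of the family, n = 3 against 3, where the smallest possible p is 0.1). The 5-end share was 1.15% ± 0.132 in HFD and 1.46% ± 0.583 in CD (exact permutation p = 0.6), a difference of -0.318 percentage points that shrank to -0.0014 once CD replicate 3 was left out and grew to -0.575 once CD replicate 1 was. Of the 15 tRFs none was called by edgeR's quasi-likelihood test at an adjusted p under 0.05, as for all 142 tRFs tested (0% called). At an unadjusted p under 0.05 there were 3 of 15, all higher in HFD, against 16.2% of all tRFs. DESeq2, run with the same library sizes and with its own, also called none of the 15.

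These 3 were the other fragments of tRNA-Arg-ACG (log2 fold change 0.75, SE 0.34), the tRF3 of tRNA-Arg-ACG (0.63, SE 0.31) and the tRF5 of tRNA-Arg-TCG (1.41, SE 0.65), each with an adjusted p of 0.260 by edgeR. The TCG tRF5 rested on few reads, 4.33 to 7 in CD and 11 to 19 in HFD, and stood at 0.160, 0.295 and 0.217 RPM in CD and 0.395, 0.695 and 0.678 RPM in HFD. It and the ACG other fragments were the 2 of 15 tRFs whose HFD libraries all lay above the CD libraries, where 25.7% of all tRFs did so. Over the 15 the median log2 fold change was 0.34, beside 0.44 over all tRFs tested, and 13 were above 0. With the trimmed mean of M-values (TMM) as scaling, the median of all tRFs moved to -0.056, that of the 15 to -0.175, and 3 of 15 were above 0, so the direction of the family in HFD turned with the scaling. Without CD replicate 2, the library with the most tRNA-Arg of its group, the ACG other fragments (0.98, adjusted p = 0.0442) and ACG tRF3 (1.03, adjusted p = 0.0291) were called by edgeR, where 18.3% of all tRFs were.

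The HFD libraries also held more of a white blood cell miRNA, mir-142a (370.0 to 590.5 against 233 to 277 RPM). The summed white blood list, most of it mir-142a, was 423 to 719 RPM in HFD and 285 to 337 RPM in CD, with mir-142 at 0 in all libraries. Of its other members, mir-223 lay apart (15.98 to 20.3 against 13.6 to 15.7 RPM). Overlapping were mir-150 (33.4 to 101 against 32.7 to 48.3 RPM) and mir-155 (3.82 to 6.50 against 4.30 to 5.52 RPM). The summed red blood list overlapped, at 13352 to 25341 RPM in HFD and 12630.4 to 16586 RPM in CD, and 1 of its 4 miRNAs, mir-451a, lay apart (980.0 to 1212 against 596 to 929.9 RPM). The part of such cells in the tRNA-Arg values was not tested. In RNA from pooled tissue, fewer cells of a type and less RNA per cell cannot be told apart.

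Inhibition of AMPK was examined by comparing CC with Ctrl TM4 cells. The summed level was 1.69 times higher in CC (log2 ratio 0.76, n = 2 against 2, with no test made of the summed level), and it rested largely on CC replicate 2, without which the log2 ratio was 0.28. None of the 15 tRFs was called by edgeR, against 0.699% of 143 tRFs, and DESeq2 called none under either scaling, against 4.2% of all tRFs. At an unadjusted p under 0.05 there were 4, against 27.3% of all tRFs. The tRF3 of ACG, CCG and TCG had log2 fold changes of 0.73 (SE 0.31), 0.71 (SE 0.20) and 0.58 (SE 0.21), with adjusted p-values of 0.170, 0.132 and 0.147 by edgeR. The tRF5 of tRNA-Arg-ACG had a log2 fold change of -1.66 (SE 0.63, adjusted p = 0.154) on 5 to 22 reads in CC and 40 to 52 in Ctrl.

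All 5 tRF3 had log2 fold changes above 0 in CC, from 0.40 to 0.73, as did all 49 tRF3 of the series. The median of the 15 was 0.32, beside 0.43 over all tRFs. With TMM the median of all tRFs was 0.061, and 7 of the 15 instead of 12 were above 0. For 11 of 15 the CC libraries lay above the Ctrl libraries, and for 1 below, beside 53.6% and 8.61% of all tRFs. Without CC replicate 1, 4 were called by edgeR, namely the tRF3 of ACG, TCG and TCT (higher) and the tRF5 of ACG (lower), where 28.7% of all tRFs were called. The red blood list was lower in CC (1091 to 1152 RPM) than in Ctrl (1607 to 1639 RPM), while 2 of its 4 miRNAs, mir-144 and mir-451a, were at or under 0.561 RPM in both. The white blood list was higher, at 822 to 877 RPM in CC and 713 to 761 RPM in Ctrl. Nearly all of it was mir-155 (820.5 to 875.4 against 710.1 to 758.5 RPM). Of its other members, mir-150 was lower in CC (0.903 to 0.948 against 1.38 to 1.48 RPM) and mir-142a overlapped (0.756 to 0.870 against 0.805 to 0.839 RPM). In both groups mir-223 was at most 0.101 RPM and mir-142 at 0. The relation of these to the tRNA-Arg values was not tested.

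Excess angiogenin was examined by comparing Ang OE with the same Ctrl libraries that served for CC. The tRF5 of tRNA-Arg-TCT was higher in Ang OE and was the 1 tRF of 15 called by edgeR, where 10.5% of 143 were called and 4.9% were called higher and 5.59% lower. It stood at 17.1 and 37.7 RPM in Ang OE, 7.95 and 3.56 RPM in Ctrl, 5.94 and 2.59 RPM in CC, 1.62, 2.62 and 2.39 RPM in CD, and 2.41, 2.43 and 3.54 RPM in HFD. Both Ang OE libraries, with 848 and 2055 reads, were above all others. The log2 fold change was 2.25 (SE 0.57, adjusted p = 0.0432), while without Ctrl replicate 2 it was 1.79 (adjusted p = 0.118), without Ang OE replicate 2 it was 1.58 (adjusted p = 0.0726) and with the replicate number as a block 2.40 (adjusted p = 0.0723), so the call was lost in these 3 settings. Over the alternatives run the adjusted p ranged from 0.000442 to 0.118. The 5-end share of all other mature tRNAs also moved, at 67.4% and 67.5% in Ang OE and 28.5% and 42.0% in Ctrl.

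For 8 of 15 the Ang OE libraries lay above the Ctrl libraries, and for 3 below, beside 34.9% and 39.5% of all tRFs. At an unadjusted p under 0.05 there were 3 of 15, against 35.7% of all tRFs. Beside the TCT tRF5 these were the tRF3 of CCG (0.61, SE 0.20, adjusted p = 0.0763 by edgeR) and the tRF3 of CCT (-0.66, SE 0.26, adjusted p = 0.113). The CCG tRF3 was almost all CCA-end, at 22.6 and 20.4 RPM in Ang OE against 14.2 and 13.7 RPM in Ctrl, and when reads that did not match the genome were left out its log2 fold change was -0.30. The CCT tRF3 stood at 13 and 18.5 RPM in Ang OE and 24.5 and 25.5 RPM in Ctrl. For the same CCT isoacceptor the other fragments had a log2 fold change of 0.95 (SE 0.52, adjusted p = 0.202), so that neither of these passed by edgeR. DESeq2 with its own size factors called both (adjusted p = 0.0275 for the CCT tRF3 and 0.00465 for the CCT other fragments) and also the CCG tRF3 (adjusted p = 0.0404), which TMM called as well (adjusted p = 0.0474 by edgeR).

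Among all tRF5 tested in this comparison, 35 of 44 had log2 fold changes above 0, and among the tRNA-Arg 4 of 5. Among all tRF3, 6 of 49 were above 0, and among the tRNA-Arg 3 of 5. The CCA-end share of tRNA-Arg was 10.6% and 7.89% in Ang OE and 14.96% and 15.18% in Ctrl. The summed level of tRNA-Arg was 1.72 times that of Ctrl (log2 ratio 0.78), but as a share of mature tRNA reads it was 6.98% and 6.69% against 6.14% and 7.63%, which overlapped. The Ang OE libraries also held more mir-143, a smooth muscle miRNA also found in other mesenchymal cells (60795 to 79052 RPM against 29069 to 30566). They held more mir-145a of that list too (740 to 916 against 682 to 701 RPM). Its mir-133a-1 and mir-133a-2 were lower (0.055 to 0.0605 against 0.166 to 0.19 RPM), and its mir-1a-1 and mir-1a-2 were at most 0.0275 RPM. Also higher was mir-34c, a germ cell miRNA also found in other cells (1134 to 1277 against 551 to 563 RPM), while mir-463 and mir-880 of the germ cell list stayed at 0. The red blood list was lower, at 1089.7 to 1164 RPM against 1607 to 1639 RPM in Ctrl. Their relation to the tRNA-Arg values was not tested.

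**Figure D4:**
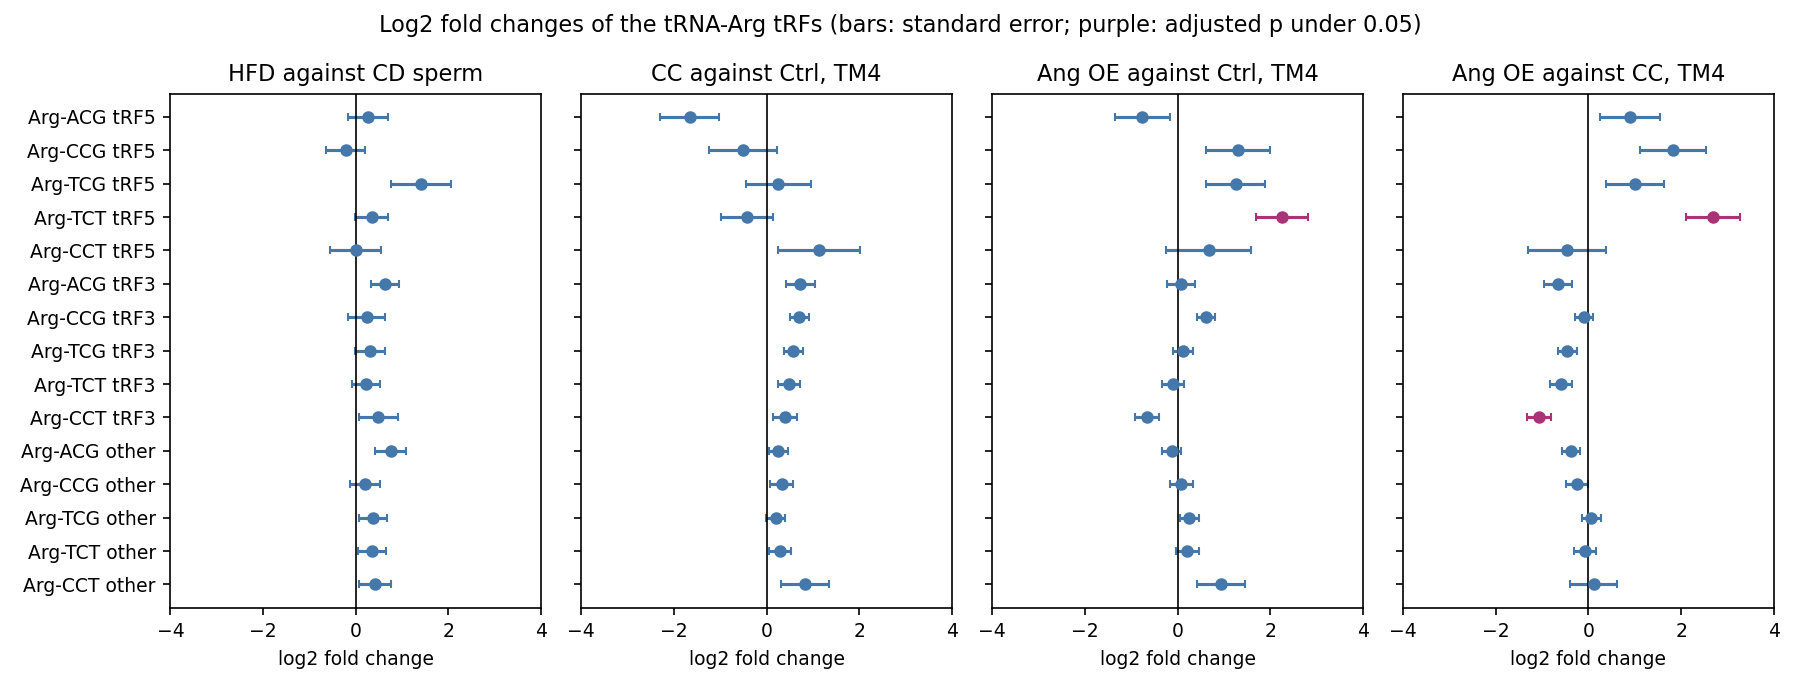
Log2 fold changes (x axis) of the 15 tRNA-Arg tRFs (y axis) in 4 comparisons, with bars of 1 standard error on each side and purple points where the adjusted p was under 0.05 by edgeR. The points that passed are the TCT tRF5 in both Ang OE comparisons and the CCT tRF3 in Ang OE against CC.

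Among the TM4 comparisons the most tRFs were called between Ang OE and CC, namely 51.7% of 143 by edgeR (13.3% higher and 38.5% lower). Of the 15 tRNA-Arg tRFs 2 were called, 1 in each direction, and 4 had an unadjusted p under 0.05, against 57.3% of all tRFs. The Ang OE libraries lay above those of CC for 3 and below for 6, beside 25.2% and 53% of all tRFs. The tRF5 of TCT was higher in Ang OE (log2 fold change 2.68, SE 0.58, adjusted p = 0.0104), and remained called in all 16 alternatives run, with adjusted p-values up to 0.0331. The other 2 with an unadjusted p under 0.05 were not called. The tRF5 of CCG stood at 1.197 and 2.402 RPM in Ang OE and 0.793 and 0.21 RPM in CC (log2 fold change 1.83, SE 0.71, adjusted p = 0.0629 by edgeR), and it was called in 7 of 15 alternatives. The tRF3 of TCT (-0.58, SE 0.24, adjusted p = 0.0738 by edgeR) was called in 2 of 15. The tRF3 of CCT was lower, at 13 and 18.5 RPM against 27.5 and 38.3 RPM (log2 fold change -1.06, SE 0.26, adjusted p = 0.0143), and was called in 12 of 15 alternatives, but not with TMM (-0.63), without CC replicate 2 (-0.80) or without Ang OE replicate 1 (-0.83). All 5 tRF3 of tRNA-Arg had log2 fold changes below 0, as did 48 of 49 tRF3 of all tRNAs, but the tRNA-Arg median was -0.58 and that of all tRF3 -1.28. With TMM, which moved the median of all tRFs from -0.38 to 0.031, the CCG tRF3 turned to 0.31 and 4 of 49 tRF3 were above 0. The share of calls that were higher in Ang OE went from 25.7% to 47.3% with TMM. No other fragment of the 5 isoacceptors was called, where 3 of 50 were called higher and 14 lower. The other fragments of CCT had a log2 fold change of 0.11 (SE 0.51), and its sign turned without CC replicate 1 (-0.29) and without Ang OE replicate 2 (-0.11). The summed smooth muscle list, nearly all mir-143, was higher in Ang OE (61711 to 79792 RPM) than in CC (30287 to 42667 RPM). So was the germ cell list, mostly mir-34c (1195 to 1335 against 550 to 595 RPM), while the red and white blood lists overlapped. Their relation to the tRNA-Arg values of Ang OE and CC was not tested.

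The cell line was compared with sperm through the control groups, Ctrl against CD. These differ in cell type, growth in culture, depth and possibly library batch, which cannot be told apart. The summed level was 4.18 times higher in Ctrl (exact permutation p = 0.2, the smallest possible with 2 against 3). Of 14 tRNA-Arg tRFs tested, 8 were called higher and 4 lower by edgeR, where 29.4% and 54.5% of 143 tRFs were (83.9% in all). For 8 of the 15 the Ctrl libraries lay above the CD libraries and for 5 below, beside 30.7% and 58% of all tRFs. The TCG tRF5 was not tested because too few libraries reached 10 reads. The median log2 fold change was 1.56, beside -1.17 over all tRFs, and with TMM these were 2.61 and -0.067. The sign of the tRNA-Arg median turned with genome-matched reads alone (-0.62, with 5 of 14 above 0) and with CCA-tailed reads as a class of their own (-0.70, with 8 of 19 above 0). Of all tRFs called, 35% were higher in Ctrl, and 52.7% with TMM. The other fragments of CCT (3.28, SE 0.37, adjusted p = 1.92e-16) and TCT (1.74, SE 0.32) were higher in Ctrl, whereas those of ACG (-1.17, SE 0.35), CCG (-1.96, SE 0.35) and TCG (-0.70, SE 0.33) were lower. The ACG call was lost with TMM (-0.099, adjusted p = 0.564 by edgeR) and with the size factors of DESeq2 (-0.21, adjusted p = 0.359), while that of CCG was kept in both (-0.85 and -0.96). Among the other fragments of all tRNAs, 4 of 50 were called higher and 35 lower.

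Among the tRF3 of all tRNAs, 34 of 49 were called higher in Ctrl and 9 lower. The 5 tRF3 of tRNA-Arg were all called higher, from 2.02 for TCG to 4.46 for CCT (SE 0.38). For 3 of them this rested on reads that did not match the genome, which does not encode the CCA tail. With only the reads that matched, the log2 fold changes of CCG, TCG and TCT tRF3 were -0.53, -1.29 and -0.99, while those of ACG and CCT were 0.92 and 4.06. In the 6 TM4 libraries, the share of CCA-end reads listed as matching the genome was 0.245% to 2.38% for CCG, TCG and TCT. It was 12.6% to 17.9% for ACG and 39.6% to 77.8% for CCT. In the 6 sperm libraries it was 14.9% to 39.3% for CCG, 4.81% to 18.3% for TCG and 0% to 5.51% for TCT. There it was 26.6% to 40.6% for ACG and 36.4% to 93.75% for CCT. Keeping matched reads alone thus removed a larger part of the CCA-end reads in TM4 than in sperm for ACG, CCG and TCG. The 3-end reads without the tail were lower in Ctrl than in CD for all 5 isoacceptors, with no overlap. For ACG they stood at 0.755 and 0.979 RPM in Ctrl against 3.61 to 9.91 RPM in CD. For TCT they stood at 2.52 and 1.07 RPM against 2.82 to 4.94 RPM. For CCG, TCG and CCT they were at most 0.759 RPM in either group. The call of the TCG other fragments held in 6 of 14 alternatives (adjusted p 0.00164 to 0.384 by edgeR or DESeq2), and with TMM and with the size factors of DESeq2 their log2 fold change turned to 0.35 and 0.24. It was lost without CD replicate 1, Ctrl replicate 1 or Ctrl replicate 2 (-0.56, -0.81 and -0.60). The tRF5 of CCT was called lower (-2.67, SE 0.78) on 5 and 6 reads in Ctrl, and that of TCT higher (1.38, SE 0.39). The former was lost with TMM (-1.64, adjusted p = 0.0949 by edgeR) and with the replicate number as a block (-2.53, adjusted p = 0.142), and the latter without Ctrl replicate 1 (0.69, adjusted p = 0.179). Epithelial miRNAs stood at 0.719 to 1.16 RPM in Ctrl and 4484 to 5090 RPM in CD, with mir-200a at 0 in Ctrl, and their part in the sperm values was not tested.

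Over the 12 libraries, the tRFs of other families most like the summed tRNA-Arg tRF5 were those of tRNA-Gly-CCC (Pearson's r = 0.89 of log2 RPM), tRNA-Tyr-GTA (0.85) and tRNA-Lys-TTT (0.83), out of 124 candidates. Within the 6 TM4 libraries r was 0.92 to 0.95, and within the 6 sperm libraries 0.030 to 0.68. The summed other fragments were most like the other fragments of tRNA-Lys-TTT (0.97) and the tRF3 of tRNA-Tyr-GTA (0.95) and tRNA-Val-TAC (0.93). Within TM4 these were 0.89, 0.39 and 0.29, and within sperm 0.84, 0.73 and 0.26, so the values over 12 libraries rest in part on the distance between sperm and TM4. The libraries share depth and source, and fall into sperm and TM4, so these values describe the libraries and carry no test.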

How the data were processed

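Small RNA of 6 sperm and 6 TM4 libraries was sequenced, and per the labels and the study's methods the authors trimmed the reads (FastQC 0.12.0, Trimmomatic 0.40 and the mm10 build in the submitters' processing notes) and annotated them with SPORTS1.1. The deposited values are estimated counts of reads per annotation class, in which the authors' pipeline divides a read among the subclasses it matches. Reads that matched the genome and reads that did not were added, divided by clean reads minus ribosomal reads, and given as RPM. Counts were rounded and tested in edgeR 4.0.16 (R 4.3.3) with the quasi-likelihood test over every tRF that reached 10 reads in 3 libraries (sperm) or 2 (TM4, and Ctrl against CD), with Benjamini-Hochberg adjustment and a threshold of 0.05. The test was checked on simulated data. The 6 TM4 libraries shared a model. DESeq2 1.42.0 and ComBat-seq (sva 3.50.0) were alternatives. The methods name ComBat-seq for the cell lines, but no batch is given, so no main value carries it. Fragments named were all tRNA-Arg tRFs, with values per library for those called and the 5 with the most reads. Members and lists were chosen with earlier results of these data known. Sequences were read from GRCm39, not from the build of the files, on the chromosomes where RefSeq lists tRNA-Arg genes. The search asked for at least 6 acceptor stem pairs and 4 pairs in each of the anticodon and T stems, and did not test the D stem. Hits were named by chromosome, anticodon, length and order in RefSeq. Hits beyond the RefSeq number were set aside by their spacing, so the search could not find more genes than RefSeq lists. Intervals and tests do not cover amplification bias, as reads carried no molecular identifiers.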

Additional observations from a re-analysis of the deposited data

Results flagged for a closer look

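The CCA-end reads of mitochondrial tRNA-Arg-TCG, which entered no comparison of the report, were above the control level in every HFD library. They stood at 1.43 to 1.83 RPM in HFD (mean 1.58, 33 to 51 reads) and 0.975 to 1.22 RPM in CD (27 to 29 reads). No test of this difference was made. Of all nuclear tRFs, 25.7% also had every HFD library above every CD library, and the share of tRFs with a log2 fold change above 0 in HFD went from 91.55% to 42.25% with TMM scaling.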

How the results depend on the processing

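Replicates of a group differed beyond counting noise (the 15 tRFs gave a chi-square of 27.3 to 1716 for each degree of freedom). Each library was entered as a replicate, although such a spread may be technical and does not show that TM4 libraries were separate cultures. Depth is lowest for the tRF5 of CCT, on 2 to 15 reads in TM4 and 8 to 32 in sperm, and that of TCG, on 4.67 to 20 reads in TM4 and 4.33 to 19 in sperm. The number of tRNA-Arg tRFs called in HFD against CD (0) stayed at 0 in the 9 alternatives with all libraries, and leaving out each library gave 0 to 2, the 2 without CD replicate 2 (18.3% of all tRFs). In CC against Ctrl (0) it was 4 with ComBat-seq (35% of all tRFs) and 0 to 4 (0.704% to 28.7%) with a library left out. In Ang OE against Ctrl (1) it was 2 with TMM (22.4% of all tRFs), 4 with the size factors of DESeq2 (37.8%), 2 with the compared groups alone (31.7%), 4 with ComBat-seq (44.1%) and 0 to 1 (2.11% to 9.86%) with a library left out. In Ang OE against CC (2) it was 1 with TMM (38.5%), 4 with ComBat-seq (61.5%) and 1 to 7 (30.3% to 59.4%) with a library left out, the 7 without CC replicate 1 (59.4%). In Ctrl against CD (12 of 14 tested) it was 9 with TMM (76.9%), 10 with DESeq2 size factors (78.3%), 16 of 19 with CCA-tailed reads as a class of their own (82.3%), 11 or 12 in the other alternatives and 11 to 12 (76.8% to 85.2%) with a library left out. Where a group was left with a single library, it was assumed to vary like the others.

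With the replicate number as a block, 0 tRNA-Arg tRFs were called in HFD against CD (0% of all tRFs), 0 in CC against Ctrl (1.4%), 0 in Ang OE against Ctrl (17.5%), 2 in Ang OE against CC (53.8%) and 11 in Ctrl against CD (84.6%). The numbers are not known to pair the samples. Same-numbered sperm libraries deviated together with r of 0.020, 0.21 and 0.21, and CD replicate 1 did not correlate best with its own number. In TM4, r was 0.76 for Ctrl and CC, -0.22 for Ctrl and Ang OE and -0.25 for CC and Ang OE, and a block with the Ang OE numbers crossed, chosen after seeing the data, called 2 tRNA-Arg tRFs against Ctrl (21.7% of all tRFs) and 3 against CC (59.4%).

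The log2 ratio of the summed level was -0.011 in Ang OE against Ctrl and -0.66 in Ang OE against CC with mature tRNA reads as the denominator, and with a library left out it ranged from 0.28 to 1.12 (CC against Ctrl), 0.59 to 0.95 (Ang OE against Ctrl) and -0.34 to 0.50 (Ang OE against CC). The difference in 5-end share kept its sign, but with a library left out it ranged from -0.575 to -0.0014 percentage points in HFD against CD (nearest 0 without CD replicate 3), -0.381 to -0.058 in CC against Ctrl (-0.058 without Ctrl replicate 1, -0.085 without CC replicate 2), 0.303 to 0.797 in Ang OE against Ctrl (0.303 without Ang OE replicate 2), 0.523 to 1.02 in Ang OE against CC and -1.28 to -0.704 in Ctrl against CD. Over all 74 tRNA-Arg tests, 22 signs turned with TMM (10 of 15 in HFD against CD, 5 in CC against Ctrl, 0 in Ang OE against Ctrl, 4 in Ang OE against CC and 3 of 14 in Ctrl against CD) and 19 with DESeq2 size factors. The remaining alternatives were followed for 30 of these tests, those with an unadjusted p under 0.05 and the CCT other fragments. Among them signs turned for the CCT other fragments in HFD with TMM (-0.058) and in Ang OE against CC without CC replicate 1 (-0.29) or Ang OE replicate 2 (-0.11, within a range of -0.29 to 0.68 as libraries were left out), for the CCG tRF3 in Ang OE against Ctrl with genome-matched reads (-0.30), and in Ctrl against CD for the tRF3 of CCG (-0.53), TCG (-1.29) and TCT (-0.99) with genome-matched reads and the TCG other fragments with TMM (0.35) and DESeq2 size factors (0.24). Genome-matched reads left out most CCA-end reads of CCG, TCG and TCT, and for CCG and TCG a larger part in TM4 than in sperm. The cause of the changes was not tested. Of 425 values of these 30, 374 kept direction and side of the threshold.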

Other observations

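Precursor reads were listed for a single tRNA-Arg, TCT, the isoacceptor with introns in 4 of its 5 genes. They stood at 17.1 and 15.8 RPM in Ctrl, 10.5 and 8.07 RPM in CC, 9.22 and 9.26 RPM in Ang OE, and at most 0.665 RPM in sperm (2 to 18 reads). The CC and Ang OE libraries were all below the Ctrl libraries, with no test made, while the tRF5 of the mature tRNA was higher in Ang OE.

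Mitochondrial tRNA-Arg-TCG, which is encoded apart from the nuclear genes, had the opposite distribution to the nuclear family. It stood at 16.2 to 22.8 RPM in CD, 17.7 to 35.7 RPM in HFD, 3.25 to 3.49 RPM in Ctrl, 2.96 to 3.62 RPM in CC and 1.39 to 1.53 RPM in Ang OE. No 5-end read of it was listed in any library.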
